A study of Homo sapiens with 6 samples.

Results

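The 10 genes described here are TXNIP and its relatives ARRDC1, ARRDC2, ARRDC3 and ARRDC4, the thioredoxins TXN and TXN2, the thioredoxin reductases TXNRD1 and TXNRD2, and MLXIP, which encodes the transcription factor MondoA. They were taken by symbol from 45372 Ensembl gene IDs, and all 10 had a value in each library and were among the 13680 genes expressed highly enough to be tested. The group was chosen by the measured mimic-minus-control difference of TXNIP in these same libraries, and the other 9 genes were added as its relatives and partners, so the comparison of mimic with control cells is given below for these genes as a description and not as a test. RNA was sequenced from human umbilical vein endothelial cells (HUVECs), primary cells from the lining of the umbilical cord vein, used here after 3 passages and of wild-type genotype per the labels. Both groups received lipid-based transfection and were harvested at 48 h: 3 libraries came from cells given 50 nM of a miR-409-3p mimic, a synthetic RNA that stands in for the mature microRNA, and 3 from cells given 50 nM of a non-specific control RNA. No untransfected cells were analysed here, and every title carries the words "non treated", which the labels do not explain. Replicates are called biological, but the labels do not say whether they came from separate donors or cultures, so the errors below cover the spread between these libraries, and the design text says that each RNA sample pooled 4 technical replicates.

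TXNIP binds reduced thioredoxin and blocks it, and, like the other alpha-arrestins, it also acts as an adaptor that brings ubiquitin ligases of the NEDD4 family to membrane proteins, among them glucose transporters. Thioredoxins are small proteins that reduce disulfide bonds in other proteins, TXN in the cytosol and nucleus and TXN2 in mitochondria, and the selenium-containing reductases TXNRD1 and TXNRD2 recharge them with electrons from NADPH. MondoA, working with its partner MLX, senses glucose phosphates and is a known activator of TXNIP and ARRDC4. In endothelium TXNIP is known from work on flow, high glucose and inflammation.

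Deposited values were TPM, which correct read counts for gene length and library size. For most low values the length matched that of all annotated exons of a gene, which can exceed the expressed transcript. Levels set side by side between genes depend on that length and are approximate. The low values implied an estimated depth of 29800000 to 35800000 reads a library. The endothelial genes PECAM1, CDH5, VWF and ERG averaged 1092, 816, 939 and 181 TPM in mimic cells and 1048, 832, 899 and 174 TPM in control cells, as the labelled cell type would have. The leukocyte genes PTPRC and CD3E, the epithelial genes KRT5 and KRT14 and the blood genes HBA1 and HBB were listed at 0 in every library. Summed leukocyte markers reached 16.9 to 19.2 TPM in mimic and 16.9 to 19.9 TPM in control libraries, most of it CD68, and fibroblast markers 13.0 to 16.4 TPM in mimic and 12.9 to 16.1 TPM in control libraries. Epithelial markers summed to 249 to 310.1 TPM in mimic and 290.2 to 300 TPM in control libraries, almost all of it KRT18. KRT18 averaged 264.2 TPM in mimic and 280.5 TPM in control cells, and EPCAM 2.09 TPM in mimic and 2.14 TPM in control cells. Smooth muscle and pericyte markers summed to 508 to 549 TPM in mimic and 499 to 523 TPM in control libraries, almost all of it RGS5. Of 6 blood and platelet markers 5 were at 0 throughout, and PF4 was listed at 0.204 to 0.559 TPM in mimic libraries and at 0 in control libraries; its part in the differences below was not tested. BTG2, the gene in the series title, averaged 51.6 ± 5.22 TPM in mimic and 80.0 ± 1.05 TPM in control cells (SD, n = 3 each).

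In HUVECs TXN, TXNRD1 and TXN2 were abundant and the alpha-arrestins were not, apart from ARRDC3 and TXNIP. The reductase TXNRD2 stood below ARRDC3, at 38.75 TPM on average in mimic and 39.85 TPM in control cells. In control libraries the order of mean TPM was TXN, TXNRD1, TXN2, ARRDC3, TXNRD2, TXNIP, MLXIP, ARRDC2, ARRDC1 and ARRDC4. Neighbours in that order whose library values overlapped were TXNIP with MLXIP and ARRDC2 with ARRDC1. In mimic libraries TXNIP stood in place 5, above TXNRD2, ARRDC1 stood above ARRDC2, and no neighbouring genes overlapped. In control cells TXNIP met the range of MLXIP only through control library 2, at 27.01 TPM beside a highest MLXIP value of 27.04 TPM. In mimic cells TXNIP was above every MLXIP value. The ratio of TXNIP to MLXIP was 1.188, 1.006 and 1.341 in control libraries and 2.413, 2.843 and 1.959 in mimic libraries. This gap, too, follows largely from TXNIP, by which the group of genes was chosen, while MLXIP differed little.

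**Figure D1:**
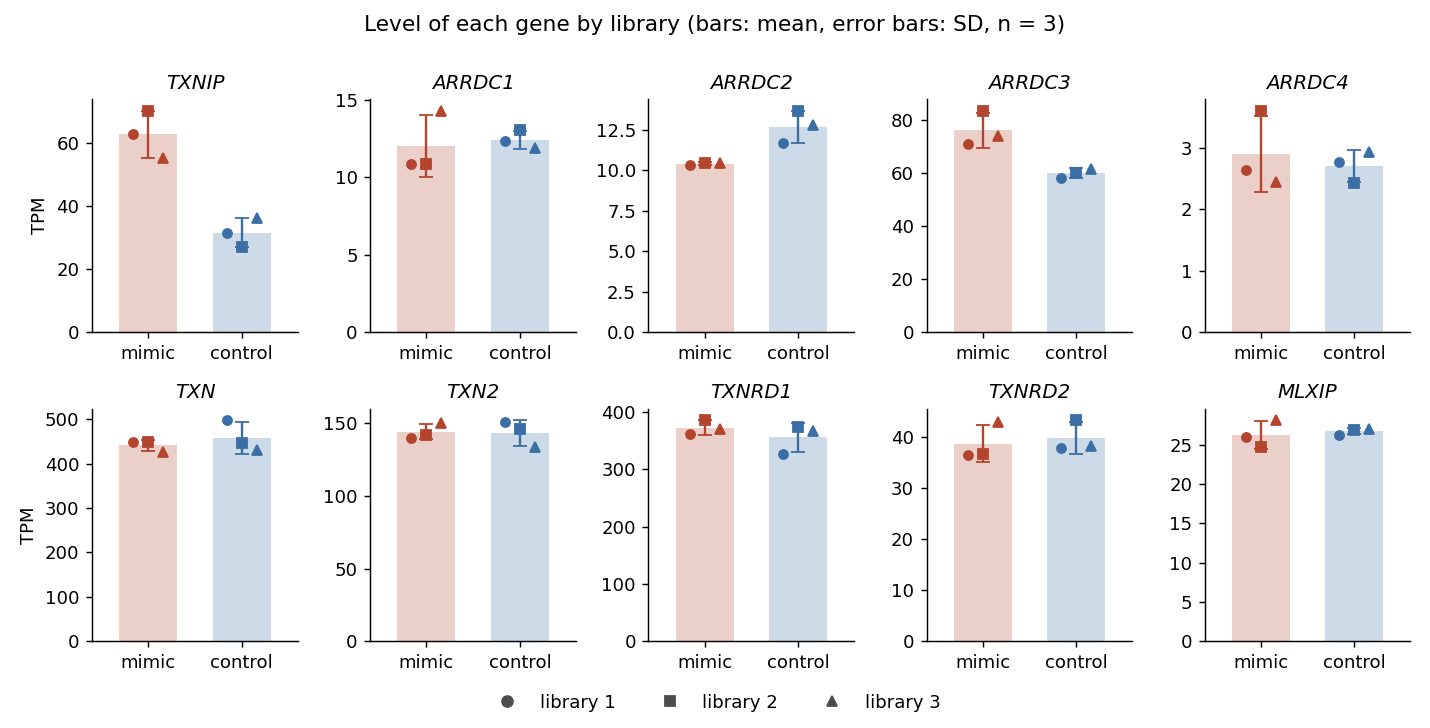
Level of each of the 10 genes in TPM (vertical axes start at 0 and differ between genes) in mimic and control libraries, with bars for the mean, error bars for the SD (n = 3) and a symbol for each library. TXNIP and ARRDC3 lie higher in all 3 mimic libraries, ARRDC2 lies lower, and the other 7 genes overlap.

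TXNIP, the alpha-arrestin that binds thioredoxin, had 62.7, 70.2 and 55.2 TPM in mimic libraries 1 to 3, against 31.3, 27.0 and 36.3 TPM in control libraries 1 to 3. Every mimic library was above every control library, with 19.0 TPM between the lowest mimic and the highest control value. In RNA from bulk cells, fewer cells that express a gene and less of its RNA in each cell cannot be told apart. Means were 62.7 ± 7.47 TPM in mimic and 31.5 ± 4.62 TPM in control cells (SD, n = 3 each), a ratio of 1.99. On the log2(TPM + 1) scale the difference, mimic minus control, was 0.97 with a standard error of 0.12 and a 95% interval of 0.71 to 1.24 from limma, a linear model fitted across all tested genes. These values stood for an estimated 1849, 2261 and 1512 reads in mimic libraries and 939, 798 and 1138 in control libraries. TXNIP (ENSG00000265972) lies on the minus strand of chromosome 1 at 145992435 to 145996600 in GRCh38, with no other annotated gene over it. Positions of all members are from GENCODE 29. The 2 nearest tested genes on either side of TXNIP were POLR3GL, LIX1L, LINC01719 and NOTCH2NLA, and their log2 differences ran from -0.11 to 0.15.

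TXNIP was the member by which the group was chosen, and it passed the threshold of an adjusted p under 0.05 (Benjamini-Hochberg over 13680 genes), which 18 genes passed higher and 41 lower in mimic cells (34 and 42 after quantile scaling). That made 1 of 10 members called higher, beside 0.132% of all tested genes, and 0 of 10 called lower, beside 0.3% (0.431% in either direction). The group was built around that call, so nothing is read from the share. The call was not stable to single libraries: the limma adjusted p for TXNIP was 0.0629 without mimic library 1, 0.0823 without control library 1 and 0.0515 without control library 2, against 0.0143 with all 6, while the log2 difference stayed between 0.87 and 1.08.

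The mature microRNA supplied by the mimic is shown because its seed, bases 2 to 8 from the 5′ end, in capitals, sets which transcripts it can pair with. The sequence is RefSeq's, from chr14:101065346-101065367 on the plus strand of GRCh38.p14.
hsa-miR-409-3p: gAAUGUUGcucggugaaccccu

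The longest annotated 3′ UTR of each gene was searched for the reverse complement of the seed. TXNIP, at 1416 bases, held no match to the 6 core letters AACATT, nor did ARRDC1, ARRDC2, ARRDC4 and TXN2. ARRDC3 held the only 7-base match to the whole seed, CAACATT, a class that was the best match in 10.1% of 11855 searched genes. TXN, TXNRD1, TXNRD2 and MLXIP each held 1 AACATTA, the match to bases 2 to 7 followed by A, the best match in 9.54% of genes. The 5 matches are given with 10 bases on either side, from GENCODE 29 transcripts on GRCh38, with the match in capitals. The genes with a match were ARRDC3, higher in every mimic library, and 4 genes whose groups overlapped. A match in letters is not a shown site.
ARRDC3, chr5:91371216-91371242, minus strand: aagcctacagCAACATTctgagactgc
TXN, chr9:110244025-110244051, minus strand: gtgacaataaAACATTAatgctaacac
TXNRD1, chr12:104350246-104350272, plus strand: aacaatgtgaAACATTAaaattaaaag
TXNRD2, chr22:19876032-19876058, minus strand: ctcttatcagAACATTAcacctcccag
MLXIP, chr12:122144724-122144750, plus strand: aaaaatacaaAACATTAgccacgtgtg

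The promoter of TXNIP is shown with those of ARRDC3, the other member that was higher in every mimic library, and of ARRDC4, which shares MondoA as a known activator but overlapped. RefSeq's GRCh38.p14 windows from 250 bases before to 50 bases after each start were searched on both strands for the forkhead motif of FOXO factors, GTAAACA, the canonical E-box CACGTG, and a paired pattern of CACGNG followed after 5 bases by another CACGNG, of the kind MondoA and ChREBP are known to bind in TXNIP. The motifs were picked with these promoters in view. Of the 10 members 9 had a window, 15 windows in all. Capitals mark the matches.
TXNIP, chr1:145996530-145996829, minus strand: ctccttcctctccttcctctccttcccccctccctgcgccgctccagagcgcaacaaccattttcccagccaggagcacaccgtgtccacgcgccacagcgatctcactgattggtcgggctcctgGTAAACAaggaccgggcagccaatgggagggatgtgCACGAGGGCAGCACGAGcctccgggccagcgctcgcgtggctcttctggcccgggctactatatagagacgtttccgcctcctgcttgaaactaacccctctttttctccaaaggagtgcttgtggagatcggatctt
ARRDC3, chr5:91380048-91380347, minus strand: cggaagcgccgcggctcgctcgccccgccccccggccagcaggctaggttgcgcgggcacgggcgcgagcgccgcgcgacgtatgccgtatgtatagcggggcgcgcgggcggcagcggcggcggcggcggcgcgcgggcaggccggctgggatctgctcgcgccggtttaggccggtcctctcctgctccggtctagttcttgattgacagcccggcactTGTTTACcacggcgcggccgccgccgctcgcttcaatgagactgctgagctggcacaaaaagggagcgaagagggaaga
ARRDC4, chr15:97960453-97960752, plus strand: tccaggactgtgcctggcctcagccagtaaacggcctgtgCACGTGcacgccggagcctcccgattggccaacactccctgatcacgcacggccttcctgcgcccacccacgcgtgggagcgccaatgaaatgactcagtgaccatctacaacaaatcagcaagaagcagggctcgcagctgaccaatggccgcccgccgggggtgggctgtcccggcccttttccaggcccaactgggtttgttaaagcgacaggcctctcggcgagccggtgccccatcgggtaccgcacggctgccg

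In the TXNIP window shown, GTAAACA lies at bases -124 to -118 from the start and the paired pattern at -88 to -72. The window of another TXNIP start, inside the gene, held none of the forkhead, paired or CACGTG motifs. In ARRDC3 the forkhead motif lies on the opposite strand at -29 to -23, in the window of a start inside the gene, and the window of its other start held none of these 3 motifs. In ARRDC4 a single CACGTG lies at -210 to -205. GTAAACA was found in the windows of TXNIP and ARRDC3 and of no other member, and in 3.42% of all 35116 windows. The paired pattern was found in TXNIP alone among the members and in 20 windows in all, 0.057%. CACGTG was found in ARRDC4 alone and in 7.26% of windows. The antioxidant response element core TGACNNNGC, the motif of the redox factor NRF2, was found in windows of TXNRD1 and ARRDC2 and in 13.3% of all windows. The letters CCAAT were also searched for and were found in 8 of the 15 member windows and in 34.6% of all windows. These are matches in letters within short windows and do not show binding.

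ARRDC3, an alpha-arrestin known for the downregulation of beta-adrenergic receptors and integrin beta 4, was the most abundant of the family. The gene (ENSG00000113369) lies on the minus strand of chromosome 5 at 91368724 to 91383359. It had 70.8, 83.6 and 74.1 TPM in mimic libraries, against 58.0, 60.1 and 61.7 TPM in control libraries. All mimic values were above all control values, by at least 9.14 TPM. Means were 76.2 ± 6.62 TPM in mimic and 59.9 ± 1.83 TPM in control cells (SD, n = 3 each), and the log2 difference was 0.34 (SE 0.07, 95% interval 0.18 to 0.50). ARRDC3 did not reach the threshold over all genes. Without mimic library 2, which held its highest value, the difference was 0.27. The antisense gene ARRDC3-AS1 overlaps it, and whether reads were counted by strand is not given. ARRDC3-AS1 averaged 0.644 ± 0.166 TPM in mimic and 0.635 ± 0.0736 TPM in control cells (SD, n = 3 each), so it held few reads beside ARRDC3.

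ARRDC2 (ENSG00000105643), a lesser-studied member (chromosome 19, plus strand, 18001132 to 18014102), went the other way. It had 10.3, 10.5 and 10.5 TPM in mimic libraries, against 11.7, 13.7 and 12.8 TPM in control libraries. The groups did not overlap, with 1.20 TPM between them, and the 3 mimic values had an SD of 0.0780 TPM. The log2 difference was -0.26 (SE 0.08, 95% interval -0.43 to -0.09), which did not reach the threshold over all genes. Genes whose groups did not overlap made up 15.7% of all tested genes, 5.16% higher and 10.5% lower in mimic cells, and among the 10 members these were TXNIP and ARRDC3 higher and ARRDC2 lower.

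ARRDC4, which shares MondoA with TXNIP as a known activator, was the scarcest member. The gene is ENSG00000140450 (chromosome 15, plus strand, 97960698 to 97973838). It had 2.63, 3.60 and 2.45 TPM in mimic libraries and 2.76, 2.42 and 2.93 TPM in control libraries, from an estimated 75 to 130 reads each. The groups overlapped, and the log2 difference was 0.06 with a 95% interval of -0.26 to 0.39. Leaving out mimic library 2, the highest, turned that difference to -0.06. Within each group the libraries kept the same order for ARRDC4 and TXNIP. Library 2 was highest and library 3 lowest among mimic libraries, and library 3 was highest and library 2 lowest among control libraries. How many tested genes share that order was not counted, and ARRDC4 had few reads, so nothing is read from it. The ratio of TXNIP to ARRDC4 was 23.8, 19.5 and 22.6 in mimic libraries and 11.3, 11.2 and 12.4 in control libraries. That the ratio set the groups apart follows largely from TXNIP, by which the group of genes was chosen, while ARRDC4 differed little. ARRDC1 (ENSG00000197070, chromosome 9, plus strand, 137605654 to 137615360), which is known for forming vesicles at the cell surface, had 10.9, 10.9 and 14.3 TPM in mimic libraries and 12.4, 13.1 and 11.9 TPM in control libraries. These overlapped, with mimic library 3 the highest of the 6, and the log2 difference was -0.06 (95% interval -0.30 to 0.19) with all libraries, 0.0049 without mimic library 1 and 0.0067 without mimic library 2. ARRDC1 shares its locus with the antisense gene ARRDC1-AS1, at 10.7 TPM on average in mimic and 10.6 TPM in control cells, so its reads may be shared.

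Summed over the 5 alpha-arrestins, mimic libraries held 157, 179 and 157 TPM, against 116, 116 and 126 TPM in control libraries. The mean difference was 44.9 TPM, of which TXNIP made up 69.5% and ARRDC3 36.2%, with small differences of either sign from the rest. That gap follows largely from TXNIP, by which the group of genes was chosen. Without TXNIP the sum averaged 101.5 ± 6.91 TPM in mimic and 87.8 ± 2.57 TPM in control libraries (SD, n = 3 each). TXNIP was 39.8%, 39.3% and 35.3% of that sum in mimic libraries and 26.9%, 23.2% and 28.9% in control libraries, while ARRDC3 was 45.0% to 47.3% in mimic and 49.1% to 51.7% in control libraries. ARRDC3 therefore remained the leading alpha-arrestin by TPM in all 6 libraries. The ratio of TXNIP to ARRDC3 was 0.745 to 0.885 in mimic and 0.450 to 0.588 in control libraries.

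**Figure D2:**
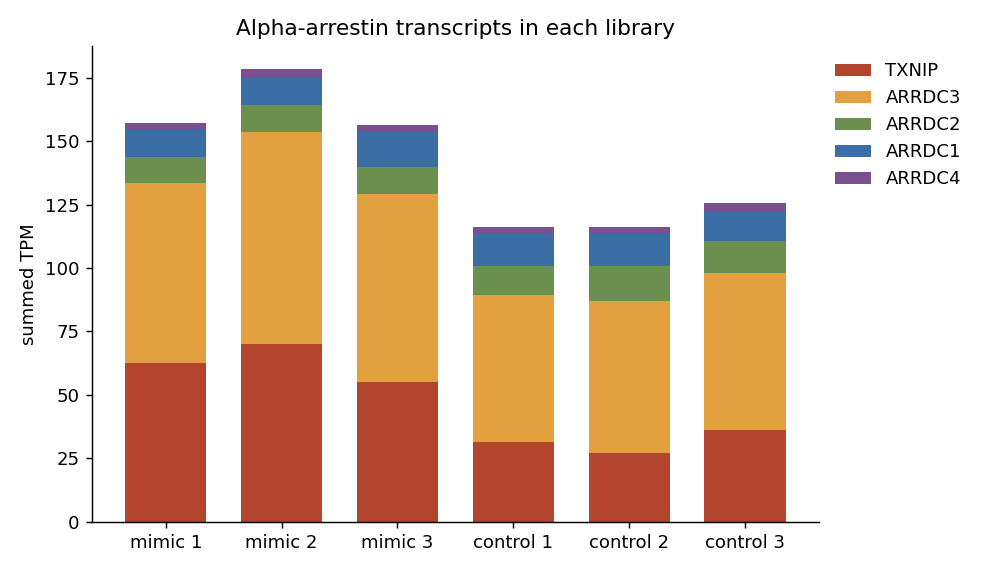
Summed TPM of the 5 alpha-arrestin genes in each library, stacked by gene. The 3 mimic libraries reach 157 to 179 TPM and the 3 control libraries 116 to 126 TPM. The segment of TXNIP, by which the group of genes was chosen, differs most.

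Among the thioredoxins, TXN (ENSG00000136810, chromosome 9, minus strand, 110243811 to 110256640) had 449, 447 and 425 TPM in mimic libraries and 498, 445 and 429.7 TPM in control libraries. Control library 1 was the highest of the 6, the others overlapped, and the log2 difference was -0.05 (95% interval -0.20 to 0.09). TXN2 (ENSG00000100348, chromosome 22, minus strand, 36467036 to 36482030), the mitochondrial thioredoxin, had 140.2, 142 and 150.0 TPM in mimic and 151, 146 and 134 TPM in control libraries, with a log2 difference of 0.01 (95% interval -0.13 to 0.15). The sign of each of these small differences changed when single libraries were left out, for TXN without control library 1 at 0.01, and for TXN2 without mimic library 3 at -0.02 and without control library 3 at -0.04. After quantile scaling that of TXN2 was -5.7e-04. The ratio of TXNIP to TXN was 0.140, 0.157 and 0.130 in mimic libraries and 0.0627, 0.0607 and 0.0844 in control libraries, without overlap. That of TXN to TXNIP was 7.16, 6.37 and 7.70 in mimic libraries and 15.9, 16.5 and 11.9 in control libraries. The gap between the groups follows largely from TXNIP, by which the group of genes was chosen, while TXN differed little. These are ratios of TPM, which depend on the gene lengths used, and are not counts of transcripts. Protein was not measured.

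The cytosolic reductase TXNRD1 (ENSG00000198431, chromosome 12, plus strand, 104215779 to 104350305) had 362, 386 and 370.4 TPM in mimic libraries and 327, 374 and 366 TPM in control libraries. The groups overlapped, and the log2 difference of 0.07 had a 95% interval of -0.07 to 0.21. The mitochondrial reductase TXNRD2 (ENSG00000184470, chromosome 22, minus strand, 19875517 to 19941992) had 36.5, 36.8 and 43.0 TPM in mimic and 37.9, 43.4 and 38.3 TPM in control libraries, with a log2 difference of -0.04 (95% interval -0.23 to 0.15). The difference of TXNRD2 turned to 0.02 without control library 2 and to 8.6e-05 without mimic library 1. TXNRD1 overlaps EID3 on its own strand. Together the thioredoxins and reductases came to 996 ± 14.1 TPM in mimic and 997 ± 25.1 TPM in control cells (SD, n = 3 each). MLXIP (ENSG00000175727, chromosome 12, plus strand, 122078722 to 122147347), the gene of MondoA, had 26.0, 24.7 and 28.2 TPM in mimic and 26.3, 26.9 and 27.0 TPM in control libraries, and the mimic values lay on both sides of the control values. Its log2 difference was -0.03 (95% interval -0.17 to 0.12), which turned to 0.02 without mimic library 2 and to 0.01 after quantile scaling. MondoA is controlled largely through its location in the cell, which RNA does not show.

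**Figure D3:**
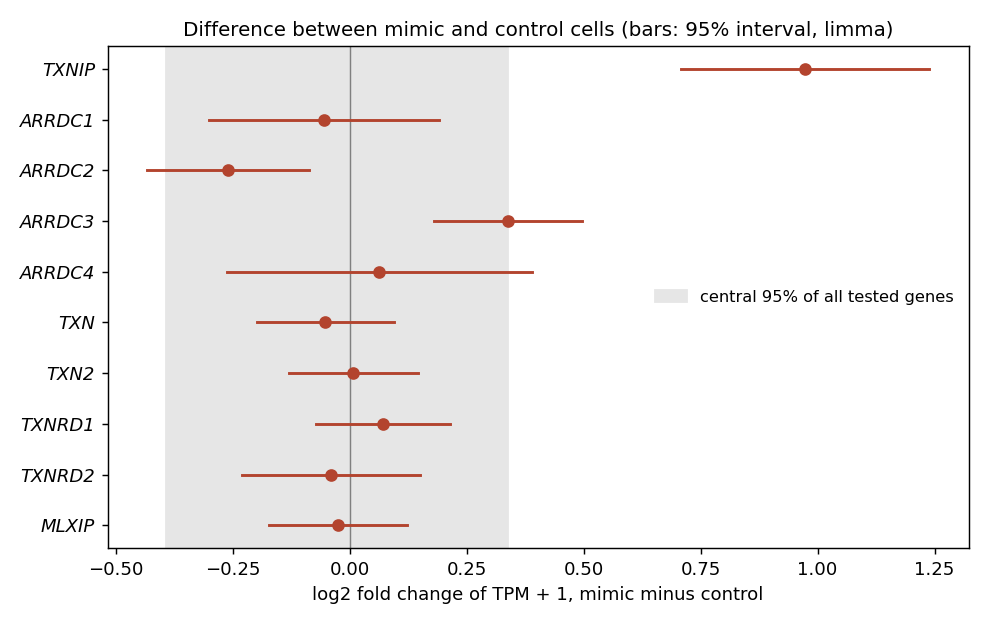
Log2 difference in TPM + 1 between mimic and control cells (mimic minus control) for each gene, with 95% intervals from limma (n = 3 each) and the central 95% of all 13680 tested genes in grey. TXNIP lies at 0.97, ARRDC3 at 0.34 and ARRDC2 at -0.26, and the intervals of the other 7 include 0.

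Over the 10 members the median log2 difference was -0.01, against -0.02 over all tested genes. The central 95% of tested genes lay between -0.39 and 0.34, and TXNIP, at percentile 99.8, was the member well outside it, while ARRDC3 lay at its upper edge, at percentile 97.5. Libraries within a group differed more for TXNIP than for the thioredoxin genes: the within-group SD on the log2 scale was 0.19 for TXNIP, 0.17 for ARRDC4 and 0.16 for ARRDC1, 0.07 to 0.12 for the remaining members, and 0.10 at the median of all tested genes.

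The genes around this system were described from 12 lists, among them partners and targets of MondoA, enzymes fed by thioredoxin, NRF2 targets, ubiquitin ligases that alpha-arrestins recruit, glucose transporters and FOXO factors. Of 123 genes listed, 115 were tested, and by limma with Benjamini-Hochberg adjustment 0 were called higher and 0 lower, beside 0.132% and 0.3% of all tested genes. At an unadjusted p under 0.05, 3 were higher (FOXO1, FOXO3 and SLC7A11) and 4 lower (HK2, GLRX2, NFE2L2 and SEPSECS), beside 3.05% and 7.64% of all tested genes. Of the 115, 6 were higher and 4 lower in mimic cells without overlap of the groups, beside 5.16% and 10.5% of all tested genes. The list medians of the log2 difference ran from -0.04 for selenoprotein synthesis to 0.24 for the FOXO factors, against -0.02 over all tested genes.

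The FOXO list stood highest, with 3 genes tested and 0 called. Lists were chosen with earlier results of these data known, so nothing is read from that rank. Any part of FOXO factors in the difference of TXNIP was not tested. FOXO1, a forkhead transcription factor of quiescent endothelium that is reported to act on TXNIP, had 70.7, 73.9 and 70.1 TPM in mimic libraries, against 53.7, 54.7 and 59.6 TPM in control libraries. All mimic values were above all control values, and the log2 difference was 0.35 (SE 0.06), with a limma adjusted p of 0.0525. That p ranged from 0.0267 to 0.199 over 15 other settings and was under the threshold in 4 of them, namely a filter of 5 TPM, median-of-ratios scaling, quantile scaling and a robust prior. FOXO3 had 18.3, 18.9 and 15.7 TPM in mimic and 14.5, 15.1 and 14.5 TPM in control libraries, again without overlap (log2 difference 0.24, SE 0.08). FOXO4 averaged 11.1 ± 1.04 TPM in mimic and 11.6 ± 0.507 TPM in control cells (SD, n = 3 each), with overlap.

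The 9 tested genes of the MLX network lay between -0.11 and 0.18 in log2 difference, and 0 passed. MLX, the binding partner of MondoA, averaged 52.5 ± 4.91 TPM in mimic and 56.7 ± 0.703 TPM in control cells, and MLXIPL, the gene of the related factor ChREBP, was listed at 0 in 5 of 6 libraries. MYC, the most abundant of them, averaged 133.5 ± 8.12 TPM in mimic and 123 ± 3.38 TPM in control cells. Of 8 tested genes reported as MondoA or ChREBP targets besides TXNIP and ARRDC4, 0 passed, and LDHA, the most abundant, averaged 479.8 ± 28.6 TPM in mimic and 483 ± 13.0 TPM in control cells. HK2, a hexokinase gene on that list, was lower in every mimic library, with 15.4, 17.2 and 16.5 TPM, against 17.3, 21.8 and 19.2 TPM in control libraries (log2 difference -0.23, SE 0.09). The log2 differences of the 8 targets lay between -0.23 and 0.10. TXNIP was chosen for its difference and lay at percentile 99.8 of all tested genes, so nothing is read from its place above them.

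Among genes downstream of thioredoxin and in parallel redox systems, 0 passed. The 13 tested thioredoxin clients, peroxiredoxins, methionine sulfoxide reductases and ribonucleotide reductase subunits, had log2 differences between -0.02 and 0.11, and PRDX1 averaged 1298 ± 23.2 TPM in mimic and 1296 ± 26.7 TPM in control cells. The 18 thioredoxin-like and disulfide isomerase genes lay between -0.10 and 0.10, with TXNDC5 at 1568 ± 18.7 TPM in mimic and 1535 ± 51.8 TPM in control cells. Of 13 glutathione and glutaredoxin genes, GPX1 averaged 967 ± 92.2 TPM in mimic and 959 ± 32.0 TPM in control cells, and the mitochondrial glutaredoxin gene GLRX2 had 10.5, 9.57 and 10.9 TPM in mimic and 12.2, 12.1 and 11.4 TPM in control libraries. NFE2L2, the gene of NRF2, had 51.6, 53.2 and 47.1 TPM in mimic libraries and 55.4, 58.4 and 61.0 TPM in control libraries (log2 difference -0.20, SE 0.07), without overlap. Among the 15 tested genes of its list, FTL, a ferritin gene and the most abundant, averaged 2740 ± 238 TPM in mimic and 2744 ± 184 TPM in control cells, and the median log2 difference of the list was 0.0048. SLC7A11, the cystine transporter gene on that list, had 89.3, 103.6 and 95.7 TPM in mimic libraries and 80.0, 86.6 and 90.2 TPM in control libraries, with overlap (log2 difference 0.17, SE 0.07). SEPSECS, an enzyme that makes selenocysteine transfer RNA, averaged 6.13 ± 0.447 TPM in mimic and 7.50 ± 0.251 TPM in control cells, and SEPHS2, the most abundant of its list, 93.7 ± 3.64 TPM in mimic and 92.4 ± 3.30 TPM in control cells (SD, n = 3 each).

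Among partners of the alpha-arrestins 0 passed as well. The 8 tested NEDD4-family ligases lay between -0.13 and 0.08 in log2 difference. ITCH, the ligase known to mark TXNIP for degradation, averaged 32.0 ± 1.46 TPM in mimic and 30.5 ± 1.62 TPM in control cells, and SMURF2, the most abundant, 95.4 ± 3.06 TPM in mimic and 104 ± 5.86 TPM in control cells. Other genes with an arrestin fold, 6 tested, lay between -0.12 and 0.13, with VPS26A, a retromer subunit gene, at 109.7 ± 14.3 TPM in mimic and 109 ± 3.35 TPM in control cells. SLC2A1, the glucose transporter that TXNIP is known to remove from the cell surface, averaged 28.1 ± 1.42 TPM in mimic and 28.1 ± 1.67 TPM in control cells, and the 7 tested transporters lay between -0.13 and 0.05, SLC2A6 being the most abundant at 31.1 ± 3.55 TPM in mimic and 31.5 ± 2.89 TPM in control cells. NLRP3, the inflammasome sensor that TXNIP is reported to bind, stayed at 0.251 TPM or less in all 6 libraries, and KDR, a receptor reported to need TXNIP for its uptake, averaged 377 ± 14.6 TPM in mimic and 349 ± 18.3 TPM in control cells with overlap (SD, n = 3 each).

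The tested genes whose profile over the 6 libraries was most like that of TXNIP were sought among 10684 genes with at least 5 TPM in the higher group. Likeness was the root mean square difference of log2(TPM + 1) after each gene was centred on its own mean. The nearest was NFKBIZ, the gene of an NF-kB cofactor, at 0.118, with 19.7, 21.1 and 19.1 TPM in mimic libraries and 8.38, 9.23 and 12.1 TPM in control libraries. It was followed by IL1A at 0.172, ZFP36, which encodes an mRNA-destabilizing protein, at 0.179, the chemokine gene CXCL2 at 0.206 and the kinase gene SNRK at 0.211. IL1A, a cytokine gene, had 6.94, 5.62 and 4.49 TPM in mimic and 2.22, 2.37 and 3.53 TPM in control libraries. As in TXNIP, control library 3 was the highest control library for NFKBIZ, IL1A, ZFP36, CXCL2 and SNRK. Unlike TXNIP, which was lowest in control library 2, these genes were all lowest in control library 1. Mimic library 2 was the highest mimic library for TXNIP, NFKBIZ, CXCL2 and SNRK, but mimic library 1 for IL1A and ZFP36. The nearest member was ARRDC3 at 0.344 and the next ARRDC4 at 0.463. A gene that separates the groups by a like amount has to come out near in this measure, so the list describes shape and size over 6 libraries and no more.

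**Figure D4:**
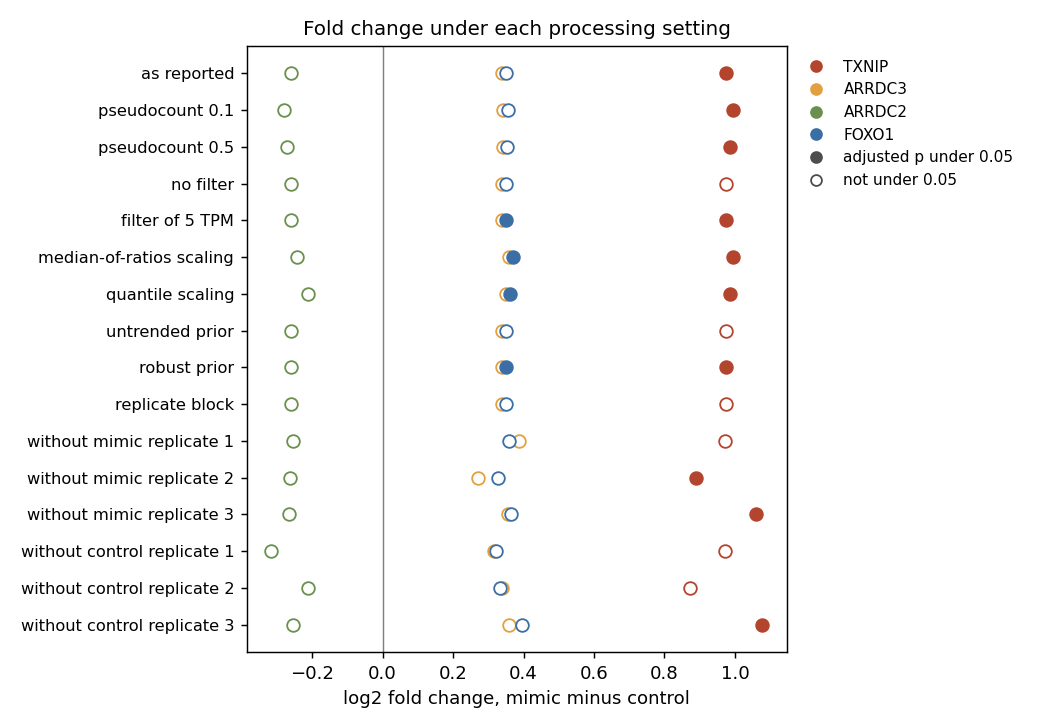
Log2 difference (mimic minus control) of TXNIP, ARRDC3, ARRDC2 and FOXO1 under each processing setting, filled where the limma adjusted p was under 0.05. TXNIP stays between 0.87 and 1.08 and is filled in 9 of 15 alternatives, FOXO1 in 4, and ARRDC3 and ARRDC2 in none.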

How the data were processed

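The authors deposited 1 table per library with TPM values for Ensembl gene IDs, per the file headers. Per the submitters' processing notes the genome was hg38 (GRCh38.p13). No source used here names the aligner, the counter, the annotation or the handling of strand. Groups came from the sample titles. Symbols came from a table that held 45102 of the 45372 IDs, and positions, exon lengths and 3′ UTRs (at least 30 bases) from GENCODE 29.

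A gene was tested if 3 or more libraries reached 1 TPM. The test was limma (version 3.58.1, R 4.3.3) on log2(TPM + 1), with group as the single term, a trended prior and a Benjamini-Hochberg threshold of 0.05. Log differences understate the change of low genes. Python 3.11.15 did the rest. The fit was tested on simulated data.

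TPM times exon length was a whole multiple of 1 step, within 0.02, for 74.2% to 74.9% of low genes. This gave the estimated reads, which came out whole for TXNIP and ARRDC2 and are approximate for the other members. PCR copies are included.

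The members and lists were chosen with earlier results of these data known. From each list the text names genes past the threshold, of which there were none, and the most abundant in control cells. The 5 genes most like TXNIP were named by rule, as was BTG2. The other genes named were chosen after their values were seen. Alternatives covered the pseudocount, filter, scaling, prior, replicate block and single libraries.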

Additional observations from a re-analysis of the deposited data

How the results depend on the processing

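Counts of genes called higher and lower, 18 and 41, became 6 and 5 without the filter on low values, 36 and 79 when it was raised to 5 TPM, 10 and 10 when the prior had no trend, and 37 and 82 when it was robust. Scaling by median of ratios made the higher count 33 and quantile scaling made it 34. With the replicate number as a replicate block they were 9 and 5. Same-numbered libraries correlated at 0.031, -0.087 and -0.11 in their deviations from the group means, so the numbers were not taken to pair libraries, and not every library correlated best with its own number. Leaving out 1 library gave 6 to 22 higher and 6 to 27 lower.

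The count of members called higher, 1, became 0 with no filter (limma adjusted p of TXNIP 0.147), with an untrended prior (0.0550) and with the replicate block (0.0762), and ran from 0 to 1 over single libraries left out. Without the filter 23872 genes were tested in place of 13680. The cause of these losses was not tested. The count of list genes called higher, 0, became 1, FOXO1, with a filter of 5 TPM, median-of-ratios scaling, quantile scaling or a robust prior. ARRDC4 was not tested under the filter of 5 TPM.

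Quantile scaling turned the log2 difference of TXN2 to -5.7e-04 and of MLXIP to 0.013. Over single libraries left out, the log2 difference ran from -0.18 to 0.0067 for ARRDC1, -0.063 to 0.15 for ARRDC4, -0.097 to 0.010 for TXN, -0.043 to 0.043 for TXN2, -0.12 to 0.021 for TXNRD2 and -0.075 to 0.017 for MLXIP. TXNIP, ARRDC2, ARRDC3 and TXNRD1 kept their direction in all 15 alternatives. Depth limits ARRDC4 most, with an estimated 75 to 130 reads a library.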
